A study of Bos taurus with 6 samples.

Results

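Chromosome 23 of cattle carries the bovine major histocompatibility complex (MHC), and this report describes the H3K4me3 peaks that lay on it in blastocysts. All peaks placed on chromosome 23 were taken from each of 3 lists, without a filter. For replicates 1, 2 and 3, the order in which every set of 3 values below is given, these were 757 of 22404, 662 of 19076 and 739 of 22060 peaks. Their mean was 719 ± 50.5 (SD, n = 3). The chromosome was picked because earlier counts of the same lists had shown it to be rich in peaks, so its peak number, density and crowding are given as descriptions, with no test.

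The samples were bovine blastocysts produced by in vitro fertilization (IVF) and kept in a semi-defined medium under low oxygen until 192 h after IVF, on day 8. There was a single group of 3 replicates without any treatment, and each replicate was a pool of approximately 11 unsexed embryos of mixed blastocyst stages with its own input library. The 3 pools came from 2 IVF procedures, so at least 2 of them share a procedure, and the SDs and tests below, which count 3 replicates, may understate the spread between procedures. Chromatin from whole embryos was precipitated with 3 µg of an antibody against H3K4me3, and the inputs were used here only as far as the authors' peak calls rest on them. Inner cell mass and trophectoderm were pooled, so a strong mark in few cells and a weak mark in many cannot be told apart. Positions are those of the bovine genome UMD 3.1.1 (bosTau8), counted from 1.

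H3K4me3 is the trimethylated lysine near the end of the histone H3 tail. It marks the promoters of active genes and of many genes that are poised for activity, and it often spreads over CpG islands. The MHC, called BoLA in cattle, holds genes for the class I and class II molecules that present peptides to T cells, genes that load those peptides, and a class III stretch with complement and cytokine genes. In cattle the class II genes lie in separate segments of the chromosome. Genome-wide, MHC segments are known for closely spaced genes, and the large histone gene cluster lies on the same chromosome as well.

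A RefSeq gene table of another assembly, ARS-UCD2.0, was used for gene names and their order only. All 26 of the 26 genes looked up were on chromosome 23 there, but they were a chosen list, so this count is no test. The chromosome also held 15 genes whose symbols begin with BOLA and 52 histone genes. The name of MHC chromosome rests on the MHC genes alone and is meant for the chromosome as a whole. In that order, a class II segment with the peptide transporter genes TAP1 and TAP2 and the immunoproteasome genes PSMB8 and PSMB9 comes first. PIM1 (a kinase), VEGFA (a growth factor for blood vessels) and RUNX2 (a bone transcription factor) follow. After them come the other class II segment, the class III genes from NOTCH4 to LTA, POU5F1, which encodes the pluripotency factor OCT4, and class I genes. The histone genes follow, and then GMNN, SOX4, E2F3, ID4, JARID2, EDN1, TFAP2A and DSP. Gene models of UMD 3.1.1 were not used here, so no peak below is assigned to a gene, and where the MHC or the histone genes lie among the windows below was not analysed here.

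Taken along the whole chromosome, H3K4me3 peaks were dense. Chromosome length was set to the end of the last peak in any list, 52471253 bp for chromosome 23. The 3 replicates had 14.4, 12.6 and 14.1 peaks per Mb, with a mean of 13.7 ± 0.962 (SD, n = 3). Among the 29 autosomes this density ranked 4th. Chromosomes 18, 19 and 25 were higher, at 18.9 ± 1.82, 18.9 ± 1.69 and 17.2 ± 1.37 peaks per Mb. Chromosome 7 came next, at 10.8 ± 0.971. The 3 values of chromosome 23 overlapped neither those of chromosome 25 above it (15.6 to 18.1) nor those of chromosome 7 below it (9.64 to 11.4). Relative to the median of the other 28 autosomes, the density was 1.77 ± 0.0505 times as high. Peaks covered 3.54%, 2.70% and 2.92% of the chromosome in replicates 1, 2 and 3, a share that again ranked 4th in each list.

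The peaks were gathered in a few places. When peaks were counted by their midpoints in 1-Mb windows, the window from 30 to 31 Mb held most, with 68, 70 and 76 peaks. Its neighbour from 31 to 32 Mb held 63, 70 and 76. By the mean over replicates these windows ranked 1st (71.3 ± 4.16) and 3rd (69.7 ± 6.51) of the 2498 autosomal windows, and a window of chromosome 19 lay between them at 70.7. The order of these 3 windows was within the spread of the replicates. Further windows rich in peaks were 27 to 28 Mb with 57, 49 and 53 peaks, 7 to 8 Mb with 40, 35 and 35, and 28 to 29 Mb with 38, 32 and 30. At the other end, the windows from 1 to 2 Mb and from 34 to 35 Mb held no peak in any list, and those from 4 to 5 Mb and from 46 to 47 Mb held 1 peak in replicate 1 and 0 in replicates 2 and 3. An empty window says only that the peak caller listed nothing there, because the lists carry no read depth.

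**Figure D1:**
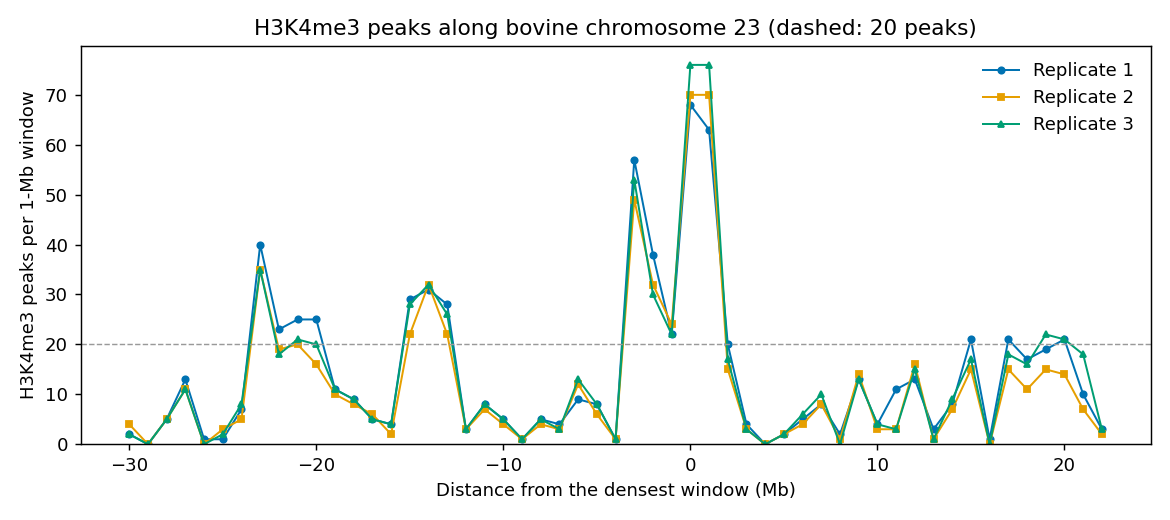
Number of H3K4me3 peaks per 1-Mb window (vertical axis) along chromosome 23, placed by distance in Mb from the densest window (horizontal axis), with 1 line for each of the 3 replicates. The profiles of the replicates run close together, and the highest pair of windows holds between 63 and 76 peaks in each list.

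Of the 53 windows of the chromosome, 12 held a mean of at least 20 peaks. These 22.6% of the windows contained 59.3%, 62.1% and 59.1% of the peaks of replicates 1, 2 and 3. They formed 3 unbroken blocks. The block from 7 to 11 Mb contained 113, 90 and 94 peaks, the block from 15 to 18 Mb 88, 76 and 86, and the block from 27 to 32 Mb 248, 245 and 257. The last of these alone carried 34.8% ± 2.13 (SD, n = 3) of the peaks of the chromosome. In contrast, 21 windows with a mean of at most 5 peaks contained 7.40%, 6.95% and 6.77% of the peaks. The median full window of chromosome 23 held 8.33 peaks, above the 5.33 of the other autosomes.

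The profile along the chromosome was close between replicates. Over the 52 full windows, Pearson's r was 0.978 between replicates 1 and 2, 0.978 between 1 and 3 and 0.989 between 2 and 3, and Spearman's rho was 0.967, 0.971 and 0.976. These are correlations across windows of the same genome, which share gene content and base composition and are not independent, so they carry no p-value. The widest gap between lists in any window was 13 peaks, between replicates 1 and 3. The window from 41 to 42 Mb differed most in proportion among those with more than 10 peaks in a list, with 11, 3 and 3 peaks. It was singled out after its values were seen.

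The 2 densest windows contained 17.3%, 21.1% and 20.6% of the peaks of chromosome 23. In the other autosomes, the share held by their own 2 densest windows had a median of 9.91%, 9.32% and 10.2%. With these windows left out of every autosome, chromosome 23 had 12.4, 10.3 and 11.6 peaks per Mb and still ranked 4th in each list. The other autosomes had a median of 7.49, 6.40 and 7.34 peaks per Mb when treated the same way.

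The peaks of the 2 densest windows were mostly of middling score. Scores come from the peak caller, on a scale that is not stated. Its lowest value in the lists is near 50, and many of the strongest peaks share the value 3100, so scores were compared as percentiles within a list or as the share of peaks at or above 3100. In these windows, 9.16%, 0.714% and 5.26% of the peaks reached 3100. In the rest of chromosome 23 the shares were 16.3%, 6.32% and 15.2%. Windows of the other autosomes with at least 40 peaks had 17.7%, 5.27% and 14.1%. In all 3 lists the 2 windows were therefore below both comparison sets. Their median percentiles were 54.8, 42.4 and 44.8, against 46.0, 47.1 and 46.6 in the rest of the chromosome and 53.1, 52.5 and 51.5 in the windows of the other autosomes, so the median was not low in replicate 1. Weak peaks, with a score under 100, made up 7.63%, 18.6% and 14.5%, against 20.6%, 24.3% and 19.3% in the rest of the chromosome and 14.5%, 16.2% and 17.3% in the windows of the other autosomes. They were thus fewer than in the rest of the chromosome in each list, but not fewer than in the other autosomes in replicate 2.

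Peaks were called as shared when they overlapped a peak of both other lists by at least 1 bp. Over all chromosomes, 76.2%, 91.7% and 79.9% of the peaks were shared in this way. On chromosome 23 the counts were 572 of 757 (75.6%, 95% Wilson interval 72.4 to 78.5), 600 of 662 (90.6%, 88.2 to 92.6) and 594 of 739 (80.4%, 77.4 to 83.1). The intervals cover counting error only. These shares lay near the values over all chromosomes. Within the 2 densest windows, however, 89.3%, 95.7% and 87.5% of the peaks were shared. In the windows of other autosomes with at least 40 peaks, the shares were 79.0%, 94.5% and 81.3%.

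Set beside the 20 autosomal windows with most peaks, 3 of which were on chromosome 23, the 2 densest windows of the chromosome stood at the edge. By the mean of the 3 lists, their shares of peaks found in both other lists were the highest of the 20. This order held in replicate 1, while windows of other autosomes were higher in replicates 2 and 3. Their median gaps between neighbouring peaks were the smallest of the 20 in each list. By the mean of the 3 lists, the share of peaks at or above 3100 was the lowest of the 20 in the window from 30 to 31 Mb and ranked 17th from the highest in its neighbour. In replicate 1 a window of chromosome 7 was lower, at 6.56% against 8.82%, and in replicate 2 a window of chromosome 5 also had no such peak. By contrast, the window from 27 to 28 Mb, which belongs to the same block, had 19.3%, 12.2% and 18.9% of its peaks at or above 3100. The windows of 1 block thus differed in the scores of their peaks. This ordering was made after the windows had been chosen by their peak number, and no test is attached to it.

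**Figure D2:**
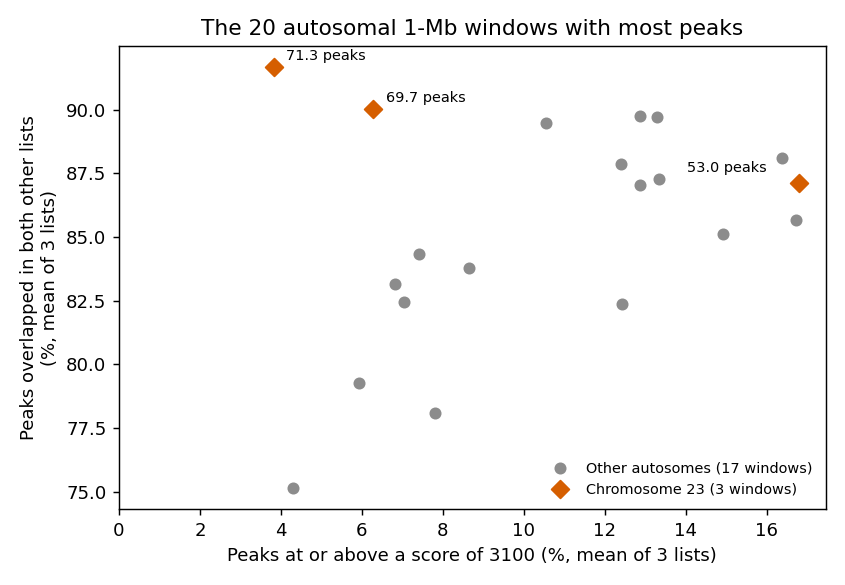
Share of peaks at or above a score of 3100 (horizontal axis, %) and share of peaks overlapped in both other lists (vertical axis, %; the axis does not start at 0) in the 20 autosomal 1-Mb windows with most peaks, each point the mean of 3 lists. Diamonds are the 3 windows of chromosome 23, labelled with their mean number of peaks, and the 2 with 71.3 and 69.7 peaks lie at the upper left.

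Neighbouring peaks on chromosome 23 were close together. The median gap between neighbours was 15.7, 16.5 and 15.3 kb, and the other autosomes had medians of 39.0, 47.7 and 38.4 kb. Gaps under 10 kb made up 40.6%, 40.7% and 41.1% of all gaps, against medians of 24.6%, 20.8% and 26.5% in the other autosomes. A cluster was defined as a run of at least 5 peaks of 1 list with gaps of at most 10 kb. The lists held 24, 19 and 19 clusters, and 10 of them in each list lay in the 2 densest windows.

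Clusters contained 24.8%, 25.7% and 22.3% of the peaks of the chromosome in replicates 1, 2 and 3, which was the highest share of any autosome in each list. The next highest autosome reached 21.8%, 13.5% and 18.6%. With the 2 densest windows of every autosome left out, the share on chromosome 23 was 14.5%, 12.6% and 9.20%, and it then ranked 2nd, 1st and 6th. The top rank in replicates 1 and 3 therefore rested on those windows. When the clusters of the 3 lists were joined by position, 24 remained, of which 18 were called in all 3 lists, 1 in 2 lists and 5 in 1 list.

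**Figure D3:**
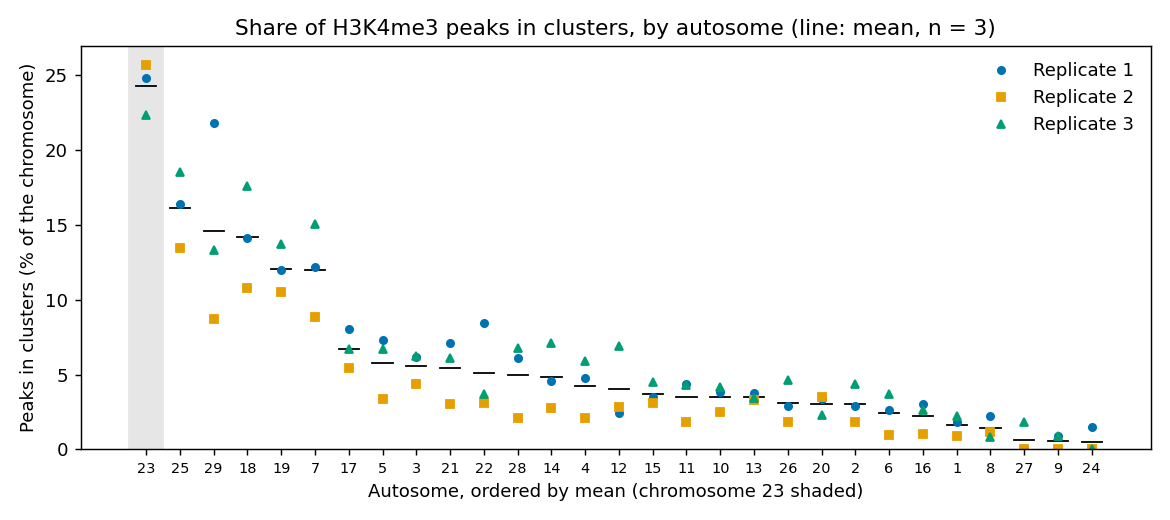
Share of the peaks of each autosome that lay in clusters of at least 5 peaks with gaps of at most 10 kb (vertical axis, %), with autosomes ordered by their mean (horizontal axis), a symbol for each replicate and a line for the mean of 3. Chromosome 23, shaded, has the highest value in each list, between 22.3% and 25.7%.

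Clusters joined over the lists are given by their joined span and the peaks of each list inside it. The one with most peaks was at chr23:30707317-30823077, where the replicates had 16, 22 and 23 peaks. It spanned 115.8 kb, and its peaks covered 54.0%, 45.3% and 46.7% of that span. Replicate 1 thus had fewer but wider peaks, with a median width of 3375 bp against 1946.5 and 1976 bp. The next was at chr23:31426459-31504072 with 12, 14 and 15 peaks, followed by chr23:31083653-31154323 with 13, 12 and 15. Both lay in the window from 31 to 32 Mb. The remaining named clusters were at chr23:29924404-29990114, with 13, 13 and 11 peaks (in replicate 3 as 2 clusters of 5 and 6), and at chr23:30003133-30061988, with 11, 11 and 13 peaks. These are neighbours on either side of the start of the densest window. The 5 clusters differed in score. The median percentile of their peaks spanned 39.4 to 60.5, 35.9 to 53.9 and 27.5 to 52.1 in the 3 lists.

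Peak-free stretches were fewer on chromosome 23 than on most autosomes. Stretches of at least 500 kb without a peak numbered 18, 18 and 17 in replicates 1, 2 and 3, and they made up 34.9%, 36.5% and 36.6% of the chromosome. The other autosomes had medians of 45.1%, 48.4% and 45.7%. Stretches free of peaks in all 3 lists numbered 16 and added up to 16.1 Mb, or 30.7% of the chromosome, where the median of the other autosomes was 40.8%, with a range from 14.1% to 54.8%. The longest was chr23:33289206-35437121, of 2148 kb, which lay beyond the 2 densest windows. The others of the 5 longest were chr23:865899-2807609 (1942 kb), chr23:20600385-21978789 (1378 kb), chr23:25861927-26996399 (1134 kb) and chr23:45712229-46742411 (1030 kb). The stretch of 1134 kb ended just before the block from 27 to 32 Mb, so a long empty stretch bordered on the block with most peaks. The peaks next to its end belonged to a cluster of 5, 8 and 5 peaks. The median over the other autosomes of the longest stretch free of peaks in all lists was 2491 kb.

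Peaks of chromosome 23 were of ordinary width. Widths spanned 480 to 11350 bp, 308 to 8972 bp and 440 to 9017 bp, with medians of 2036, 1873.5 and 1690 bp. The differences from the median of the other autosomes were -32, -69.5 and -80.25 bp, a mean difference of -60.6 bp ± 25.3 (SD, n = 3). All 3 replicates were on the same side, but an exact sign-flip permutation test over 3 replicates cannot give a two-sided p under 0.25, and it gave 0.25 (0.375 after Benjamini-Hochberg adjustment over the 3 tests made). Broad peaks of at least 5 kb numbered 53, 20 and 27. Their share of all peaks was above the autosomal median in replicates 1 and 3 and below it in replicate 2. With the lower-scoring peaks of each list (under its median score) left out, the width difference shrank to -17.8 bp. It then ranged from -96.5 to 29.5 bp, so the replicates were no longer all on the same side. Without the 2 densest windows of chromosome 23 it was -100.2 bp, with the other autosomes left whole.

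The scores of chromosome 23 lay slightly low in each list. The median percentiles were 48.9, 46.0 and 46.3. The differences from the median of the other autosomes were -0.37, -4.28 and -3.86 percentile points, with a mean of -2.84 ± 2.15 (SD, n = 3; two-sided exact sign-flip permutation p = 0.25, adjusted p = 0.375). Peaks at or above 3100 were few, at 114 (15.1%), 34 (5.14%) and 97 (13.1%). By the mean of these shares, chromosome 23 was 28th of the 29 autosomes. Without the peaks under the median score of their list, percentiles were ranked anew among the remaining peaks. The difference was then -7.91 points (two-sided exact sign-flip permutation p = 0.25). That scale is stretched relative to the one above, so the size is not compared with -2.84.

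**Figure D4:**
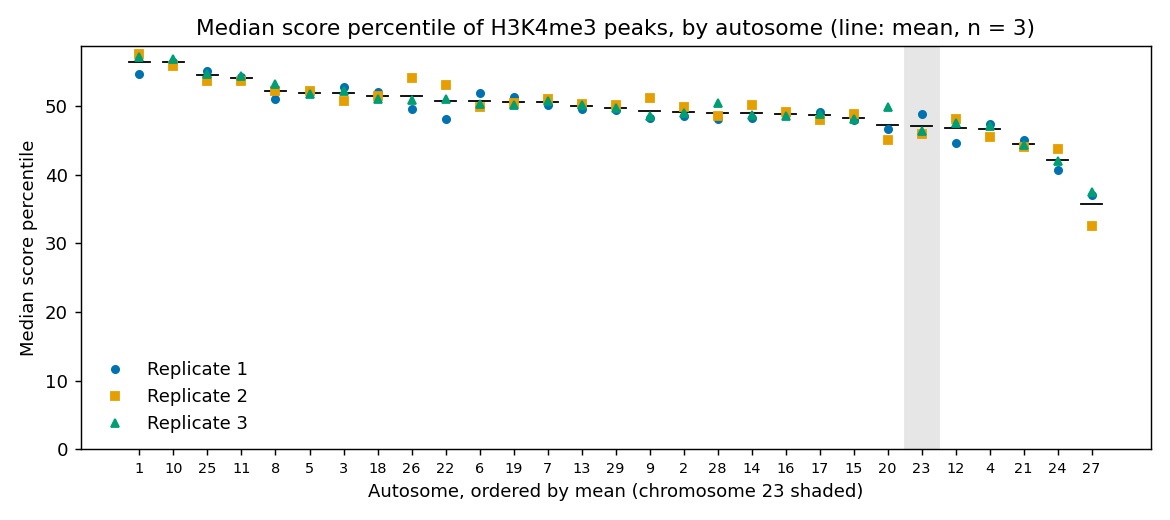
Median score percentile of the H3K4me3 peaks of each autosome (vertical axis), with autosomes ordered by their mean (horizontal axis), a symbol for each replicate and a line for the mean of 3. Chromosome 23, shaded, lies at 48.9, 46.0 and 46.3 in replicates 1, 2 and 3, in the lower part of the order.

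Few peaks lay among the highest scores. Scores above the 75th percentile of their list belonged to 19.7%, 19.6% and 20.4% of the peaks of chromosome 23 and to 25.6%, 25.6% and 25.7% of those of the other autosomes. Between the 50th and the 75th percentile lay 29.2%, 24.5% and 27.7%, against 24.6%, 24.95% and 24.6%. Below the 25th percentile, replicate 2 was fuller, with 29.5% against 24.7%, while replicates 1 and 3 had 24.4% and 25.03% against 25.1% and 24.99%. Peaks of high score were also the wider ones, on chromosome 23 as on the other autosomes. The median width on chromosome 23 was 1157, 998 and 900 bp below the 25th percentile and 3771, 3370 and 3525 bp above the 75th.

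Scores also differed along the chromosome. In the dense windows other than the top 2, the median percentile was 53.0, 54.8 and 56.4, and 21.4%, 8.86% and 22.5% of the peaks reached 3100. The dense windows of the other autosomes, with none left out, were lower in each list. Their median percentiles were 52.2, 52.1 and 51.2, and 17.8%, 5.78% and 14.8% of their peaks reached 3100. In the windows with a mean between 5 and 20 peaks, the median percentile was 41.4, 39.2 and 41.1. The comparable windows of the other autosomes had 50.5, 51.7 and 51.03. In windows of at most 5 peaks it was 37.8, 39.4 and 41.1, and those of the other autosomes had 43.1, 42.0 and 45.6. The windows of middle and of low density were thus below their counterparts in each list. No peak of at least 5 kb was among the 56, 46 and 50 peaks in the windows of low density, where the other autosomes had shares of 5.22%, 3.01% and 3.21%. With so few peaks, no difference in this share is read from the counts.

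The share of peaks found in both other lists differed from the median of the other autosomes by a mean of -0.202 percentage points ± 0.875 (SD, n = 3). The share was lower in 2 of 3 replicates (two-sided exact sign-flip permutation p = 0.75, adjusted p = 0.75). Each share was computed from all 3 lists, so the 3 values are not independent, though the test takes them to be. The mean difference turned to 0.115 when the value of replicate 2 was left out, while its list still counted in the overlaps of replicates 1 and 3. It was -2.13 (range -4.61 to -0.838) with a reciprocal overlap of 50%, and -2.23 (-3.44 to -1.05) without the 2 densest windows of chromosome 23. With peaks under the median score taken out of all 3 lists before the overlap, it was -3.18 (-5.75 to 0.451). A peak then counted as shared only if its partners passed the filter too. In the full lists, all peaks of chromosome 23 above the 50th percentile were shared in each list. With the other autosomes pooled it was -0.391. The size of the difference thus depended on the overlap rule and on the peaks taken. Sharing depended on score. Of the peaks of chromosome 23 below the 25th percentile, 20%, 68.2% and 31.4% were shared, and all of those above the 75th percentile were shared in each list. The other autosomes were alike, with 21.1%, 69.4% and 29.8% below the 25th percentile and 100%, 99.96% and 100% above the 75th. Replicate 2 had the shortest list and the highest share.

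When the peaks of the 3 lists were merged into regions, chromosome 23 had 824. A peak of all 3 lists was present in 561 of them (68.1%, 95% Wilson interval 64.8 to 71.2), and the other autosomes had a median of 67.6%, with a range from 60.6% to 74.7%. Replicates 1 and 3 alone shared 69 regions, replicates 1 and 2 shared 25, and replicates 2 and 3 shared 8. A further 86, 21 and 54 regions were called in a single list, together 19.5%, near the median of 21.3% in the other autosomes. The single-list regions of chromosome 23 were weak, with median percentiles of 9.86, 10.2 and 10.3, and the strongest reached the 34.4th percentile of its list. Regions of all 3 lists had a median percentile of 56.6 and a median width of 2625 bp. Of them, 115 (20.5%) lay in the 2 densest windows. That share was near the 17.3%, 21.1% and 20.6% of all peaks that these windows held, so the count of 115 alone is not read as an excess. The same windows held 3, 3 and 7 of the single-list regions, or 3.49%, 14.3% and 13.0% of those of replicates 1, 2 and 3.

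In 497 regions each list had a peak that could be matched to the others one to one. Across these regions, scores ranked alike, and Spearman's rho was 0.954 for replicates 1 and 2, 0.962 for 1 and 3 and 0.958 for 2 and 3. The regions share a genome and are not independent, so no p-value is given. Their widths had medians of 2367, 2025 and 2049 bp. Replicate 1 was wider than replicate 2 in 402 of the 497 (80.9%) and wider than replicate 3 in 408 (82.1%). The peaks of the other autosomes had median widths of 2100, 1946.5 and 1794 bp, so replicate 1 was the widest there as well.

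The widest region with a peak in all 3 lists was chr23:27388526-27400639, of 12114 bp, which each list called as 2 peaks with a score of 3100. Next was chr23:41386123-41397472, of 11350 bp, a single peak in replicates 1 and 3 and 2 peaks in replicate 2. The region chr23:30707317-30717410, of 10094 bp, stood apart from the other wide ones. It was called as 1, 4 and 3 peaks, its highest scores were 2252, 2318 and 2358, below 3100, and it opened the cluster with most peaks. The regions chr23:7233860-7243638, of 9779 bp, and chr23:9414599-9423564, of 8966 bp, were at 3100 in all lists, apart from the second of them in replicate 2 at 2165.

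Regions at 3100 in all 3 lists shared a mean percentile of 92.7. The 5 regions with the highest mean percentile each had a score above 3100 in at least 1 list, which put them ahead of those. At chr23:15801206-15804800, of 3595 bp, the scores were 3158, 2467 and 3170, at percentiles of 99.3, 88.5 and 99.5. The others were chr23:27449636-27454594 (mean percentile 94.0), chr23:31278354-31282704 (93.9), chr23:17656212-17659840 (93.9) and chr23:11228759-11231764 (93.8). Their widths ran from 3006 to 4959 bp. None of them was among the 5 widest, so that they were narrower than those follows from the choice of the sets. The region chr23:31278354-31282704 lay in the window from 31 to 32 Mb, so strong peaks occurred there too. These regions lay in 5 different windows, 4 of them inside the dense blocks.

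The first region of the chromosome was chr23:187614-189355 and the last was chr23:52469398-52471253. Both were called in all 3 lists, as 1 peak each. The first had score percentiles of 47.4, 46.3 and 55.3, and the last 40.9, 23.05 and 40.4. The first peak began at 187617, 187614 and 187690, and the last ended at 52471253, 52470966 and 52470984, so the outer limits of the peaks lay close together in the 3 lists.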

How the data were processed

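H3K4me3 was assayed by ChIP-seq in 3 replicates of bovine blastocysts, and each replicate had its own input. Per the paper's methods and the submitters' processing notes, 51-base single-end reads were aligned to UMD 3.1.1 (bosTau8) with Bowtie 1.2.3, mapping duplicates were removed with Picard, and MACS called peaks in each H3K4me3 library against its input, with no pooling of replicates. The MACS version and thresholds are not given in the sources used here. For each replicate the authors deposited a list of peak positions, each peak with a score whose scale is not stated. The lists hold no reads, so the depth behind a peak is unknown, and single peaks are given without an error.

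From these lists, peaks were counted by midpoint in 1-Mb windows, and widths, score percentiles within a list (mid-ranks for ties), gaps, clusters and overlaps of at least 1 bp were computed with SciPy 1.17.1, pandas 2.3.3 and NumPy 2.4.6 under Python 3.11.15. Matplotlib 3.10.9 was used for the figures. The counting steps were tested on simulated data. No filter was applied. Chromosome length was the end of the last peak in any list. Median width, median score percentile and the share of peaks found in both other lists were compared with the median of the other 28 autosomes by an exact two-sided sign-flip permutation test over the replicates, with Benjamini-Hochberg adjustment. With 3 replicates the smallest p is 0.25. The 3 replicates came from 2 IVF procedures, and which of them shared a procedure is not given in the sources used here, so they may not be fully independent.

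The chromosome, the gene names looked up and the alternatives were chosen with earlier results of these data known. Regions were named by rule: the 5 windows with most and the 3 with fewest peaks (with ties), the 5 clusters with most peaks, the 5 longest stretches free of peaks in all lists, the 5 widest regions called in all lists, the 5 of highest mean percentile among those called in all lists, and the first and last region. Alternatives covered merging of peaks less than 1000 bp apart, a filter at the median score, the minimum overlap, the start of the windows, the limits for clusters and stretches, the comparison set, ties, covered bp and leaving out each replicate. Leaving out the 2 densest windows was added after the data had been seen. Gene models of UMD 3.1.1, other data of the study and the inputs on their own were not used here.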

Additional observations from a re-analysis of the deposited data

How the results depend on the processing

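Of 57 recomputed values, 47 were counted as kept, 9 moved and 1 reversed. For the tested differences, kept means only that the mean had the same sign. A width difference of -17.8 bp, with peaks under the median score left out, was thus counted as kept beside -60.6 bp. The counts and densities also had to stay near the reported value. With peaks under the median score of each list left out, chromosome 23 held 339 peaks, or 6.47 per Mb, and its densest window 34.3. Merging peaks less than 1000 bp apart gave 12.2 peaks per Mb. Without its 2 densest windows, an alternative chosen after the data had been seen, the chromosome had 11.5 peaks per Mb and 10.7 clusters. That density was 1.48 times the median of the other autosomes, which kept all their windows. Clusters numbered 12 with gaps of at most 5 kb, and stretches without a peak 44.7 when counted from 250 kb. Windows shifted by 0.5 Mb gave 91.0 peaks in the densest.

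The difference in the share of peaks found in both other lists reversed to 0.115 percentage points without the value of replicate 2. Its range over the values left out in turn was -0.701 to 0.115. The shares were not recomputed, so the list of a replicate left out still counted in the overlaps of the others. The other results kept their direction in that step, with 13.4 to 14.3 peaks per Mb, 1.74 to 1.79 times the autosomal median, differences of -74.9 to -50.75 bp in width and -4.07 to -2.12 in percentile, 69 to 73 peaks in the densest window, 19 to 21.5 clusters and 17.5 to 18 stretches. The 3 tests had exact p-values of 0.25 to 1 over all alternatives, in a design that cannot go below 0.25, so these p-values say nothing about stability. No paired analysis was possible because the inputs, which share replicate numbers with the H3K4me3 libraries, were not analysed here. Read depth is not in the lists, so an absent peak means only that none was called.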
